A study of Arabidopsis thaliana with 12 samples.

Results

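The transcripts described here peaked sharply at 6pm, 12 h after lights on, in the shoots of Arabidopsis thaliana seedlings. They were chosen by their measured levels. A probe set is a group of array probes summarized as 1 level, and some probe sets read several genes. A probe set was taken when its mean over the 3 arrays of 6pm was at least 6 on the log2 scale. This mean also had to be at least 1.5 above the mean of each of 6am, 12pm and 12am. The lowest 6pm array of the probe set had to lie above the highest of the other 9 arrays. Of 22746 probe sets without controls, 12 met this rule (0.0528%). Because the rule used every array, the 6pm levels and all differences between 6pm and another time are given below as values without a test.

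Seedlings of the Columbia ecotype and wild-type genotype, 10 days old, were raised on plates with sucrose in days of 16 h light and 8 h dark. Their aerial parts were collected when the lights came on at 6am, after 6 h of light at 12pm, after 12 h of light at 6pm, and in darkness at 12am, which is 18 h after 6am. No harvest lay between these times, so a peak here means the highest of the 4 times, and its exact time and width are not known. Each time had 3 replicates of total RNA on 1-colour Affymetrix arrays. Whether replicates are separate cultures is not given in the labels, so p-values reflect only the spread between these samples, possibly technical.

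In plants many transcripts follow the time of day under the joint control of light and the circadian clock. In the clock, MYB-type proteins made around dawn repress evening genes, and the evening proteins in turn repress the dawn genes. Under long days 6pm falls in the late light period, when evening-phased clock outputs are known to be high in leaves. Cold-response genes and chaperone genes are among the classes known to have daily rhythms.

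Values are log2 expression as the authors deposited it. The smallest value was 2.1, and 29.3% of the values were at most 0.1 higher, so levels under a log2 of 4 were treated as near this floor. Where a mean was under 4, it was set to 4 and the fold is a lower bound. Replicate 1 stood apart: its correlation with replicates 2 and 3 of the same time was 0.967 to 0.984, against 0.986 to 0.997 between these. Calls that changed with replicates 2 and 3 alone are given beside the result. Among leaf markers, 5 of 6 genes were on a named probe set, and their lowest value on any array was 12.83 (RCA, the Rubisco activase). The root marker PYK10 was between 11.19 and 12.05 on the 12 arrays, the other 4 root markers were not on a named probe set, and the part of root-type transcripts in the results was not tested.

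Of the 12 probe sets, 5 named a single gene: AT1G07050, AT3G20340, AT4G17140, COR27 (AT5G42900) and Hsp70-2 (AT5G02490). AT1G07050 encodes a protein with a CCT domain, the plant-specific domain of CONSTANS and the pseudo-response regulators. COR27 encodes a small cold- and clock-regulated protein known to repress evening clock genes. Hsp70-2 encodes a cytosolic chaperone of the Hsp70 family, and AT4G17140 encodes a large protein of the VPS13 family of lipid-transfer proteins. The probe set 263823_s_at named 2 genes and is left unnamed. The other 6 (258325_at, 247668_at, 267364_at, 252475_s_at, 251625_at and 257985_at) were not listed in the annotation and are given by identifier.

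**Figure D1:**
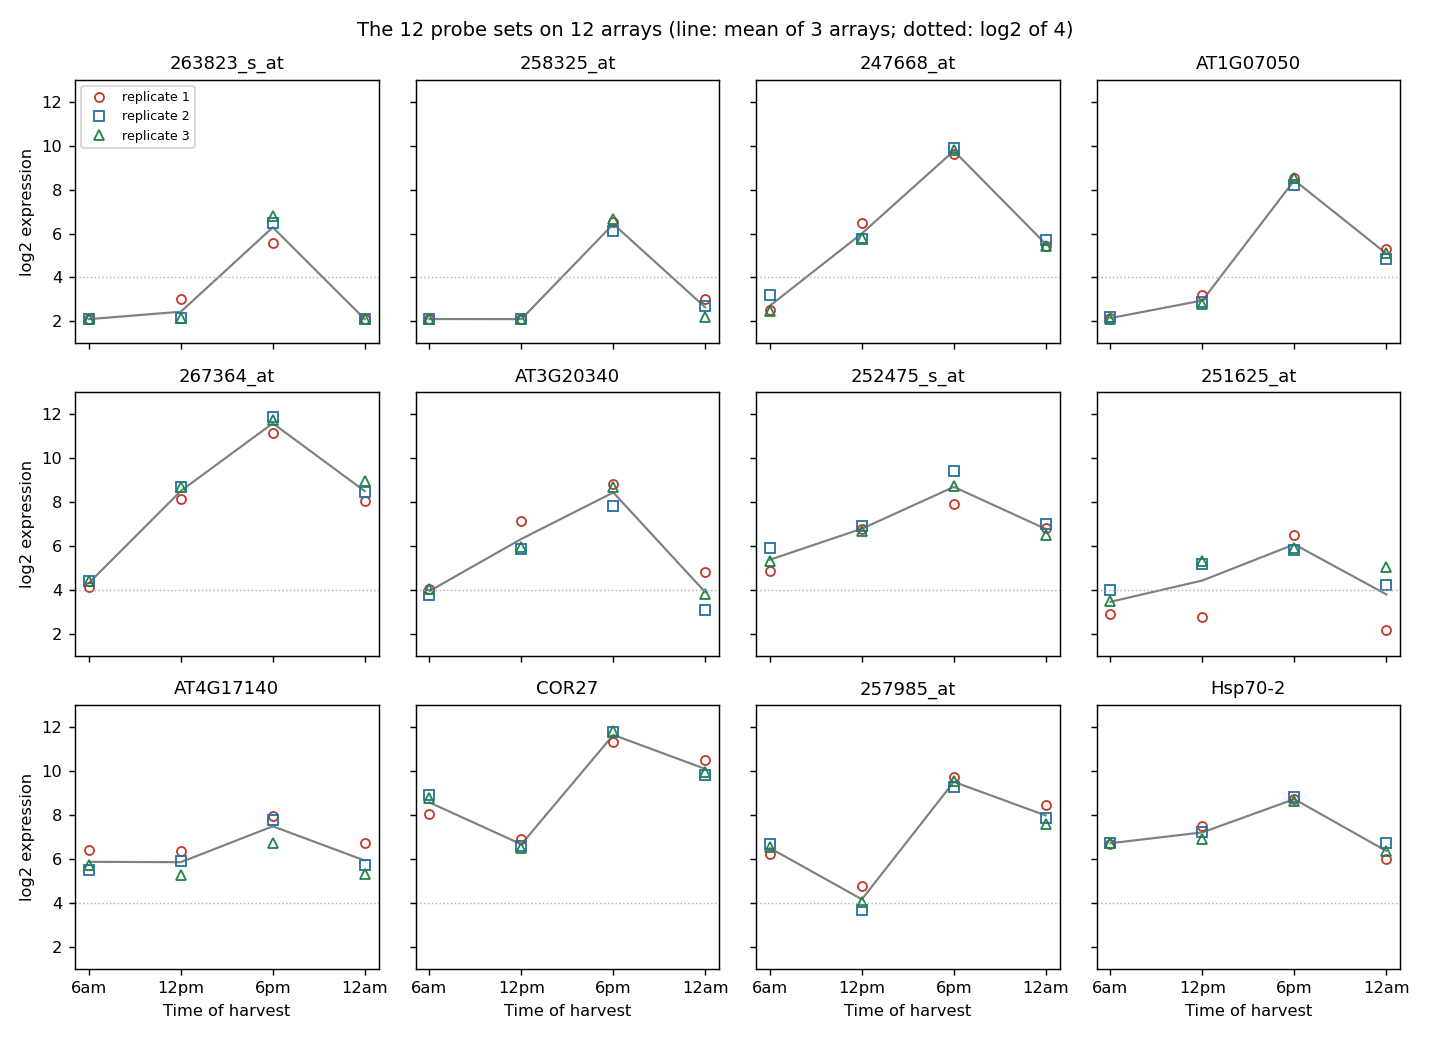
Log2 expression (vertical axis) of the 12 probe sets at the 4 harvest times, with a symbol for each replicate and a grey line through the mean of 3 arrays. As the rule requires, every 6pm array lies above all 9 others in each panel, by as little as 0.03 for AT4G17140 and by as much as 3.14 for 247668_at.

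The margin, the 6pm mean minus the next highest mean, separated the 12 by size. In 247668_at, AT1G07050 and 267364_at it was 3.76, 3.34 and 3.08 on the log2 scale. In 263823_s_at and 258325_at the next highest mean was under 4, and with that mean set to 4 the margin was at least 2.28 and at least 2.43. In AT3G20340 it was 2.11, and in the other 6 it was between 1.51 and 1.90. The next highest time was 12pm for 7 probe sets and 12am for 5, and it was 6am for 0 of them. Of all probe sets highest at 6pm with a level of at least 6, the shares were 44.5%, 33.6% and 21.9%. Second place was not clear in each member. Means at 12pm and 12am were 8.52 and 8.51 in 267364_at and 6.80 and 6.79 in 252475_s_at. In AT4G17140 the other means were 5.85 to 5.93, and in 263823_s_at and 258325_at they were under 4.

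Both 263823_s_at and 258325_at were near the floor at every time but 6pm. The probe set 263823_s_at read 5.57, 6.49 and 6.79 at 6pm, against 2.1 on each 6am array, 3.02, 2.16 and 2.14 at 12pm and 2.1 on each 12am array. The probe set 258325_at read 6.53, 6.10 and 6.67 at 6pm and at most 3.03 on the other 9 arrays. The 6pm levels were thus at least 4.87-fold and at least 5.40-fold above each other time. In such whole-shoot samples, fewer cells of a type and less RNA per cell cannot be told apart, here or in the results that follow. Both passed the filter on dim probe sets only through their 6pm arrays, and no fold can be given between the other times.

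AT1G07050, the CCT-domain gene, had the largest margin of the named genes, at 3.34. Its arrays read 2.14, 2.21 and 2.1 at 6am, 3.19, 2.87 and 2.80 at 12pm, 8.51, 8.22 and 8.55 at 6pm, and 5.31, 4.84 and 5.12 at 12am. It was thus near the floor at 6am and 12pm, high at 6pm and intermediate in the dark. The 6pm level was at least 21.5-fold above 12pm and 10.1-fold above 12am.

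The probe sets 247668_at and 267364_at were lowest at 6am and raised on both sides of the peak. The first read 2.51, 3.18 and 2.46 at 6am, 6.48, 5.74 and 5.79 at 12pm, 9.62, 9.87 and 9.80 at 6pm, and 5.42, 5.72 and 5.42 at 12am. The second had 4.16, 4.43 and 4.40 at 6am, 8.15, 8.69 and 8.71 at 12pm, 11.17, 11.88 and 11.75 at 6pm, and 8.06, 8.49 and 8.97 at 12am. Its 6pm level was 154-fold above 6am and 8.45-fold above 12pm, so most of the rise on the log2 scale came before noon. The probe set 252475_s_at had the same order of times with a smaller range, at 5.39 ± 0.52 at 6am, 6.80 ± 0.11 at 12pm, 8.70 ± 0.74 at 6pm and 6.79 ± 0.26 at 12am (SD, n = 3), with 12pm and 12am arrays that overlapped.

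AT3G20340 and Hsp70-2 had a higher level before the peak than after it. AT3G20340 read 4.04, 3.79 and 4.05 at 6am, 7.14, 5.88 and 5.98 at 12pm, 8.83, 7.83 and 8.68 at 6pm, and 4.82, 3.08 and 3.82 at 12am. Hsp70-2 read 6.69, 6.73 and 6.73 at 6am, 7.49, 7.22 and 6.92 at 12pm, 8.72, 8.83 and 8.62 at 6pm, and 6.01, 6.73 and 6.35 at 12am. The chaperone transcript therefore stayed well above the floor throughout, with a 6pm level 2.85-fold above 12pm and 5.13-fold above 12am. Genes of the Hsp70 family are similar in sequence, and whether this probe set also reads its relatives was not tested.

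COR27 and 257985_at had their lowest level at 12pm, 6 h before the peak. COR27 read 8.04, 8.90 and 8.78 at 6am, 6.89, 6.59 and 6.51 at 12pm, 11.34, 11.79 and 11.81 at 6pm, and 10.51, 9.82 and 9.96 at 12am. The probe set 257985_at read 6.24, 6.70 and 6.54 at 6am, 4.77, 3.70 and 4.02 at 12pm, 9.71, 9.28 and 9.53 at 6pm, and 8.46, 7.86 and 7.61 at 12am. The rule set 6pm as the highest time. Below it the order in both was 12am, 6am and 12pm, with no overlap between the arrays of any 2 of them. The 6pm level was 31.5-fold above 12pm for COR27 and 40.7-fold for 257985_at, but 2.92-fold and 2.89-fold above 12am.

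The remaining members, AT4G17140 and 251625_at, had the smallest distances between the lowest 6pm array and the highest other array, at 0.03 and 0.52. AT4G17140 read 6.39, 5.48 and 5.74 at 6am, 6.38, 5.90 and 5.27 at 12pm, 7.96, 7.75 and 6.74 at 6pm, and 6.71, 5.74 and 5.34 at 12am. The lowest 6pm array, replicate 3, lay 0.03 above the highest other array, replicate 1 of 12am, and the 6pm mean was 2.95-fold to 3.1-fold above the other times. The probe set 251625_at read 2.92, 3.99 and 3.50 at 6am, 2.79, 5.21 and 5.32 at 12pm, 6.52, 5.84 and 5.90 at 6pm, and 2.18, 4.21 and 5.04 at 12am. Its replicate 1 was the lowest array at 6am, 12pm and 12am and the highest at 6pm, and with replicates 2 and 3 alone it no longer met the rule. Nor did it meet the rule when values under 4 were set to 4.

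**Figure D2:**
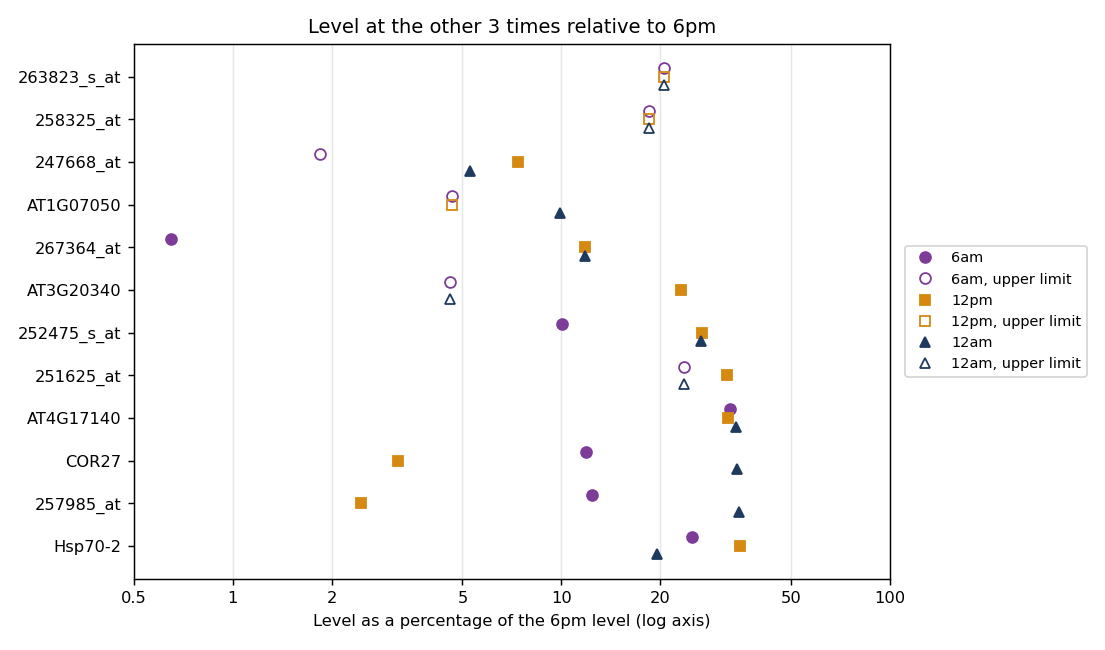
Level of each probe set at 6am, 12pm and 12am as a percentage of its own 6pm level, on a log axis, from the means of 3 arrays. Open symbols are upper limits where the mean was under a log2 of 4; COR27 and 257985_at have their 12pm symbols at 3.17% and 2.46% and their 12am symbols at 34.2% and 34.6%.

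The rule does not order the 3 times other than 6pm, so the differences between them were tested. Linear models were fitted with limma to 14185 probe sets over all 12 arrays, and a call is a Benjamini-Hochberg adjusted p below 0.05 over all of them. All 12 members were among those tested. The rule keeps each of these means below the 6pm mean, and the 2 probe sets at the floor could hardly differ. The counts therefore describe the 12 and carry no test of their own. The spread in each test also drew on the 6pm arrays, which the rule used. With only the 6 arrays of the 2 times compared, the same members were called, 7, 5 and 6 of the 12 in the comparisons below.

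At 12pm against 6am, the first 6 h of light, 5 of the 12 were higher and 2 lower, where 17.3% of all tested probe sets were higher and 17.1% lower. The median difference was 0.65 over the 12 and -0.02 over all tested. The probe set 267364_at was higher at 12pm by 4.19 ± 0.25 (SE), 18.3-fold, with an adjusted p of 4.12e-07. The probe set 247668_at was higher by at least 4.01-fold (adjusted p = 1.42e-06 by limma). AT3G20340 was higher at 12pm by at least 5.03-fold (adjusted p = 0.00155 by limma), and 252475_s_at by 2.66-fold (adjusted p = 0.00717 by limma).

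Opposite to these, COR27 was lower at 12pm than at 6am by 3.74-fold (difference -1.90 ± 0.25, limma adjusted p = 0.000165). The probe set 257985_at was also lower, by 5.04-fold (limma adjusted p = 8.54e-05). All 3 of the 12pm arrays lay below all 3 of the 6am arrays in both. AT1G07050 was called higher at 12pm, but both means were under a log2 of 4, and the call was lost when values under 4 were set to 4. Hsp70-2 was at 7.21 ± 0.29 at 12pm and 6.71 ± 0.02 at 6am (SD, n = 3), with a limma adjusted p of 0.0633. All its 12pm arrays lay above all its 6am arrays, and it was called on leaving out replicate 3 of 12pm (limma adjusted p = 0.0353) or either replicate 1 or 2 of 12am (0.0355 and 0.0412) and with a replicate block (0.0435).

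At 12am against 12pm, 6 h after the peak against 6 h before it, 3 of the 12 were higher and 2 lower, where 13.9% of all tested probe sets were higher and 14.2% lower. The median difference was -0.01 over the 12 and 0.02 over all tested. COR27 was higher at 12am by 3.43 ± 0.25 (SE), 10.8-fold, and 257985_at by 3.81 ± 0.28, 14.1-fold, each with a limma adjusted p of 1.88e-06. AT1G07050 was also higher at 12am, by at least 2.13-fold (limma adjusted p = 1.95e-06).

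The lower members at 12am were AT3G20340, by at least 5.03-fold (limma adjusted p = 0.00156), and Hsp70-2, by 1.80-fold (limma adjusted p = 0.00592). All 12am arrays lay below all 12pm arrays in both genes. The probe sets 267364_at and 252475_s_at each differed by -0.01 log2 between the 2 times, with standard errors of 0.25 and 0.34, so a change of about the size of these errors would not have been called. The probe set 247668_at was at 5.52 ± 0.17 at 12am and 6.00 ± 0.41 at 12pm (SD, n = 3), with arrays that did not overlap and a limma adjusted p of 0.149.

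At 12am against 6am, 6 of the 12 were higher and 0 lower by limma, where 12.5% of all tested probe sets were higher and 11.2% lower. At an unadjusted p below 0.05 the count lower was likewise 0. The 6 were 267364_at (18.1-fold), 247668_at (at least 2.87-fold), AT1G07050 (at least 2.13-fold), COR27 (2.88-fold), 257985_at (2.79-fold) and 252475_s_at (2.64-fold). In each, all 12am arrays lay above all 6am arrays, as they did in 258325_at, which was near the floor and not called. The share of all tested probe sets without such overlap was not computed, here or for the other comparisons. The least certain of the 6 was 252475_s_at, with a limma adjusted p of 0.0114 and 0.00171 to 0.0499 over its alternatives. The median difference was 0.97 over the 12 and 0.01 over all tested.

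AT3G20340 was under a log2 of 4 at both times, with 3.91 ± 0.87 at 12am and 3.96 ± 0.15 at 6am (SD, n = 3, limma adjusted p = 0.949). Hsp70-2 was at 6.36 ± 0.36 at 12am and 6.71 ± 0.02 at 6am (limma adjusted p = 0.208). AT4G17140 lay between 5.85 and 5.93 in its means at 6am, 12pm and 12am, and its 3 differences had limma adjusted p from 0.923 to 0.982. With a standard error of 0.42 for each difference, only large changes could have been called for this gene. The probe set 251625_at was not called either, with limma adjusted p from 0.346 to 0.781. With replicates 2 and 3 alone it was higher than at 6am both at 12pm (limma adjusted p = 0.00231) and at 12am (0.0317), and the members called in the 3 comparisons numbered 8, 5 and 7, with every earlier call among them. Over all tested probe sets the calls with these replicates numbered 6038, 5359 and 5111, against 4881, 3987 and 3363 with all arrays.

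**Figure D3:**
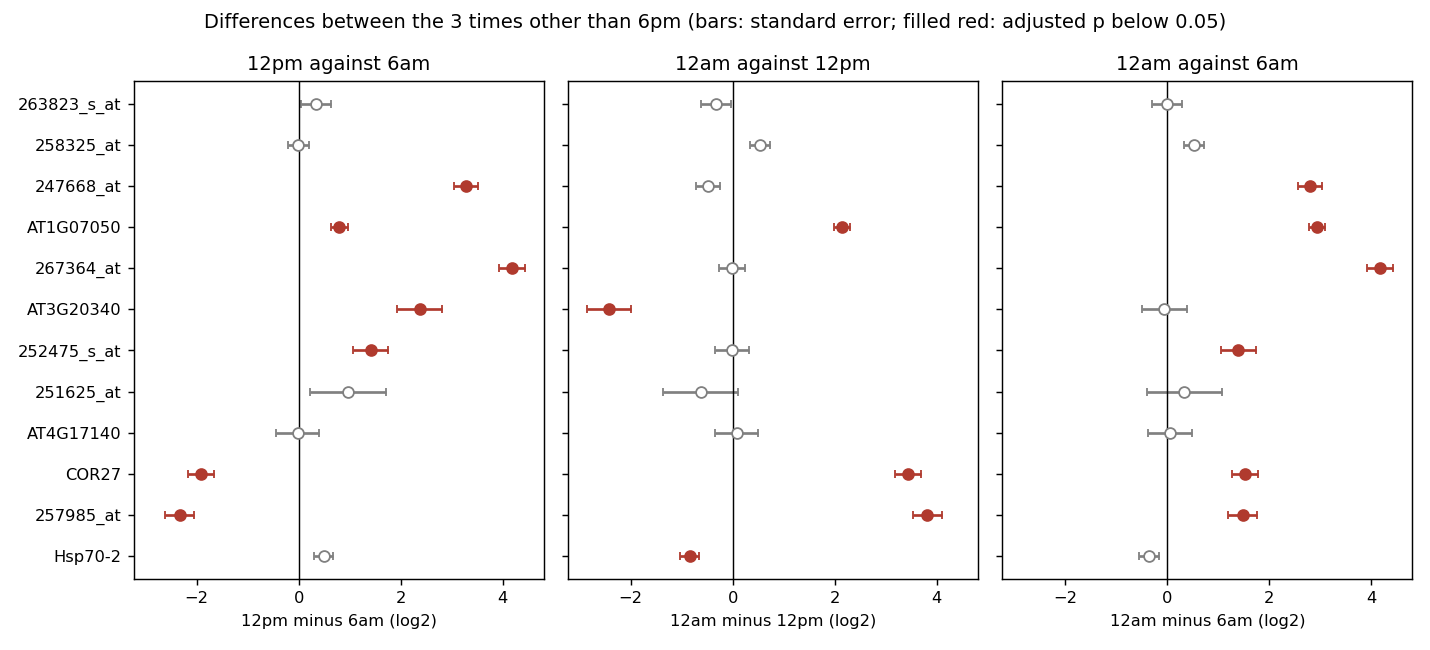
Differences on the log2 scale between the 3 times other than 6pm for each probe set, with the standard error of the model as bars and called differences filled. COR27 and 257985_at lie left of 0 at 12pm against 6am and right of 0 in the other comparisons, whereas AT3G20340 lies right of 0 at 12pm against 6am and left of 0 at 12am against 12pm.

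COR27 was the only member from the lists of genes drawn up for this tissue. Of 15 cold-response genes, 6 were on a named and tested probe set, and 5 of these had their highest mean at 6pm. Of all tested probe sets, 23.7% did. COR27 is among the 5 by the rule itself, and the lists were chosen with earlier results of these data known. The share at 6pm is therefore a description and was not tested. AT4G33980 (COR28), the closest relative of COR27, had a 6pm mean of 9.43 ± 0.05 and a margin of 1.29 over 12am, under the 1.5 of the rule. COR15B, which encodes a chloroplast protein that protects membranes in freezing, had a margin of 1.16. COR15A and COR47, a dehydrin gene, had margins of 0.13 and 0.24 over 12pm, with 6pm and 12pm arrays that overlapped.

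At 12pm against 6am, 4 of the 6 cold-response genes were higher and 1, COR27, was lower, against 17.3% and 17.1% of all tested. At 12am against 12pm 2 were higher and 3 lower, against 13.9% and 14.2% of all tested. At 12am against 6am, 5 were higher and 0 lower by limma, against 12.5% and 11.2% of all tested, and 0 were lower at an unadjusted p below 0.05. With replicates 2 and 3 alone, the numbers higher and lower were 4 and 2, 2 and 4, and 6 and 0, as AT4G33980 was added in the first comparison and ZAT10 in the others. The median differences of the 6 were 2.47, -1.16 and 2.28 in these comparisons, against -0.02, 0.02 and 0.01 over all tested. COR27 and AT4G33980 were the 2 genes higher at 12am than at 12pm, AT4G33980 by 2.88 ± 0.42 (SE), 7.35-fold (limma adjusted p = 0.000357). COR15A, COR15B and COR47 were lower at 12am by 8.16-fold, 2.88-fold and 1.73-fold.

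AT4G33980 had 5.77, 5.21 and 4.81 at 12pm and 4.06, 5.56 and 5.73 at 6am, so its replicates overlapped (limma adjusted p = 0.821). With replicates 2 and 3 alone it was lower at 12pm by 0.63 (limma adjusted p = 0.0118), the direction of COR27. ZAT10, a stress-related zinc-finger gene, was highest at 12pm and varied widely at 6pm, with 5.14 ± 2.34 (SD, n = 3). Its call as higher at 12pm than at 6am (limma adjusted p = 0.016) was lost without 12pm replicate 1 (0.0573) and without the filter on dim probe sets (0.0645). With replicates 2 and 3 alone, ZAT10 was lower at 12am than at 12pm by 1.06 (limma adjusted p = 0.00382) and higher at 12am than at 6am by 1.70 (0.000377). Without 6pm replicate 1, which read 7.84 against 3.70 and 3.88 on the other 6pm arrays, it was called in both comparisons as well (0.00271 and 0.0086), as it was with the 6 arrays of the times compared (0.0142 and 0.0099).

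**Figure D4:**
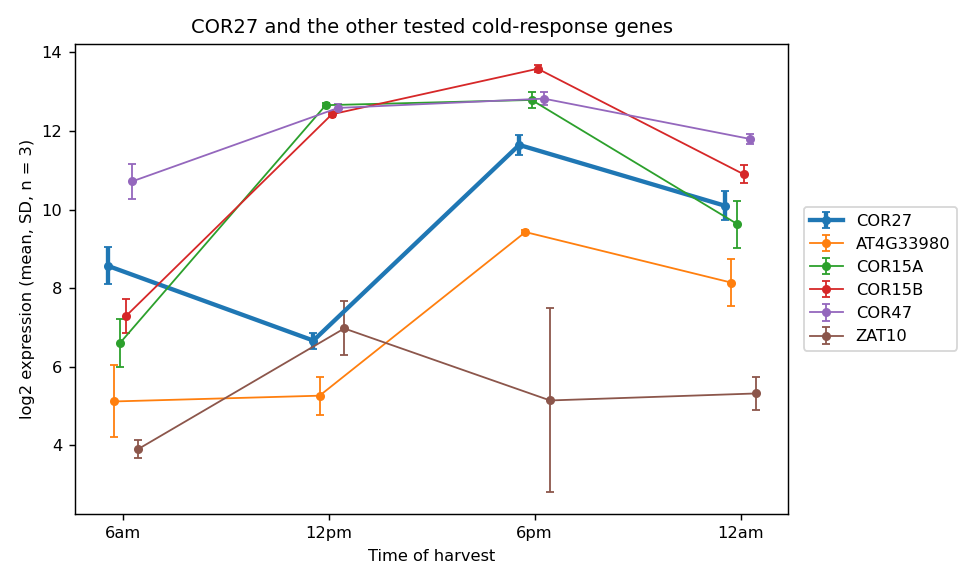
Log2 expression of COR27 and the other 5 tested cold-response genes at the 4 harvest times, as means with SD of 3 arrays; levels of different probe sets are not comparable. COR27 is lowest at 12pm (6.67), where COR15A and COR15B stand at 12.66 and 12.42, close to or below their own 6pm means.

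Among the 12 evening clock genes listed, only GI was on a named probe set, and it peaked at 12pm (8.41 ± 0.37) with 7.40 ± 0.28 at 6pm. Of 14 starch-breakdown genes, 2 were on a named and tested probe set. Both had their highest mean at 6pm, as did 23.7% of all tested probe sets, and neither met the rule. The count of 2 was not tested. PWD, a dikinase of phosphorylated starch, had a margin of 1.32. DPE1, the plastid disproportionating enzyme, had a margin of 0.28, with its lowest 6pm array 0.02 above the highest other array. The 4 genes of the heat and chaperone list, which did not include Hsp70-2, were not on a named probe set. No list other than the cold-response genes held a member.

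Genes next to the 5 named members in the TAIR10.1 annotation did not meet the rule where they were measured. The largest margin among the 9 neighbours on a named probe set, up to 2 protein-coding genes away, was 0.57 for PYRB, next to AT3G20340. DFO, next to AT1G07050, and AT5G42910, near COR27, were at the smallest value of all at each of the 4 times.

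The 12 stood close to the limits of the rule in several cases. Just inside the margin of 1.5 were Hsp70-2 (1.51), 257985_at (1.53) and COR27 (1.55). Just outside it were 247525_at (1.47), AT2G38465 and AT1G16850 (each 1.46), which met the other criteria. In all, 40 probe sets had a margin between 1 and 1.5 and met the other criteria, and 1 probe set, 264972_at, failed only the minimum level, with a 6pm mean of 3.64. No probe set failed only through overlapping arrays.

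The same rule applied to the other times found 57 probe sets at 6am, 76 at 12pm and 61 at 12am, or 0.251%, 0.334% and 0.268% of all. The number with their highest mean at a time and a level of at least 6 was 2889 at 6pm, against 3581 at 6am, 2863 at 12pm and 2786 at 12am. Of those highest at 6pm, 44.5% had 12pm as the next highest time, 33.6% had 12am and 21.9% had 6am, and the median margin was 0.14. At a margin of 3 the count was 5 at 6pm, 11 at 6am, 10 at 12pm and 4 at 12am, and 2 of the 5 at 6pm, 263823_s_at and 258325_at, reached it only through means under 4. With replicates 2 and 3 alone the rule found 19 at 6pm, 64 at 6am, 85 at 12pm and 124 at 12am. The criterion of no overlap is easier to meet with fewer arrays, so these counts are not like for like with those from all arrays. No test was made of these counts.

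**Figure D5:**
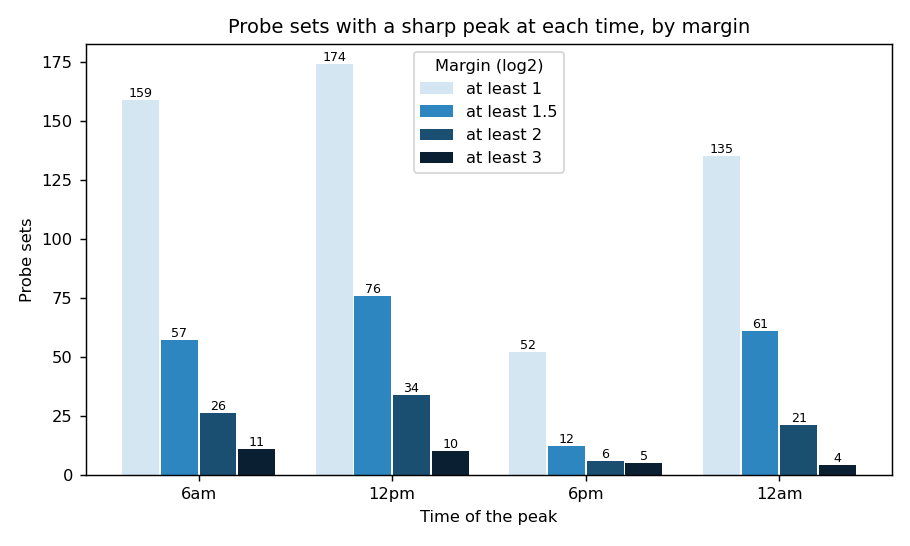
Number of probe sets with a sharp peak at each harvest time (horizontal axis), for margins of at least 1, 1.5, 2 and 3 on the log2 scale. At 6pm the counts are 52, 12, 6 and 5; at a margin of 1.5 the other times stand at 57, 76 and 61.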

How the data were processed

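Total RNA was labelled as biotin-cRNA and hybridised to Affymetrix arrays, per the labels' protocols. Per the submitters' processing notes, the authors used GCRMA, affy 1.42.3 and R 3.1, and each deposited value is a log2 level of a probe set. GCRMA subtracts a modelled background and normalizes between arrays, which hides changes in total messenger RNA. Arrays carry no read depth, and their number limits the precision. The 64 control probe sets and 8561 that did not reach a log2 of 4 on 3 arrays were left out of the tests. limma 3.58.1 in R 4.3.3 fitted time as a factor of 4 levels to 14185 probe sets, with eBayes (8 residual and 3.44 prior degrees of freedom), two-sided, with Benjamini-Hochberg adjustment. The code was tested on simulated data. Names came from the platform annotation, joined to RefSeq genes of TAIR10.1: 13513 probe sets named 1 gene, 503 several and 8730 none. Coordinates of TAIR10.1 were used only to order the genes for the neighbours. Every member naming 1 gene could be named, beside list genes and the 3 probe sets on each side of the margin; neighbours were chosen later. Members and lists were chosen with earlier results of these data known. List genes on several probe sets were read from the brightest. Lists of growth, phenylpropanoid, photoperiodic flowering and morning clock genes had 0, 1, 1 and 1 tested genes and held no member. Alternatives were other filters, normalization, moderation, arrays left out, replicates 2 and 3 alone and a replicate block. Same-numbered arrays of different times had deviations correlating at 0.06 to 0.65. Differently numbered arrays of different times correlated at -0.56 to 0.40. As not every same-numbered pair passed 0.1, the numbers were not taken as pairs in the main model. Every same-numbered pair was positive, however, so the calls with a replicate block are given below.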

Additional observations from a re-analysis of the deposited data

How the results depend on the processing

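Under every alternative run, and with calls of 258325_at counted although it lay near the floor at all 3 times, the calls between the 3 times other than 6pm numbered 6 to 8 of 12 at 12pm against 6am, 5 to 6 at 12am against 12pm and 6 to 7 at 12am against 6am, and every called member stayed called except AT1G07050 at 12pm against 6am. That call ended (difference 0, adjusted p = 1) with values under 4 set to 4, an alternative chosen after seeing the data, as was leaving out arrays from the rule. Leaving out 1 array at a time gave 7 to 8, 5 to 6 and 6 to 7 calls. A replicate block gave 8, 6 and 6 calls. It added Hsp70-2 at 12pm against 6am (adjusted p = 0.0435), while the other added call, 258325_at, had both means at the floor and is no measured difference. The block raised the calls over all tested probe sets to 6473, 5635 and 5111, against 4881, 3987 and 3363 without it. With replicates 2 and 3 alone, 251625_at was called higher at 12pm (adjusted p = 0.00231) and at 12am (0.0317) than at 6am, and COR28 reversed to -0.63 at 12pm against 6am. The number of members followed the thresholds: 52 at a margin of 1, 6 at a margin of 2 and 19 with replicates 2 and 3 alone, which kept 11 of the 12. A minimum level of 7 left 9, without 263823_s_at, 258325_at and 251625_at. Setting values under 4 to 4 left 11, without 251625_at. Leaving out 1 array gave 10 to 18, the highest without 6pm replicate 1, where 9 of the 12 remained. AT4G17140 left the rule in 6 of these 12 cases, and COR27 in 4.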
